A study of Mus musculus with 185 samples.

Results

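The cells described here were monocyte-derived Langerhans cells (moLCs), the antigen-presenting cells that donor bone marrow gives rise to in the epidermis once the host's own Langerhans cells are removed. They were divided by whether a read of Lyz2 was found in the cell. In all 185 epidermal Langerhans cells (LCs) were sequenced, and the moLCs among them with at most 5% of reads on mitochondrial genes were kept. At least 1 Lyz2 read was found in 43 of the kept moLCs, called Lyz2-read below, and none in the other 60, called Lyz2-unread. The cells were selected on Lyz2 reads, so the Lyz2 values are a description and support nothing else. The question was whether a monocyte or macrophage program remained in part of the moLCs.

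All cells came from the epidermis of bone marrow chimeras (BMC). The hosts were CD45.1 Cd207DTR mice of the B6 strain, which carry the diphtheria toxin (DT) receptor under control of the langerin gene, and were lethally irradiated (12 Gy), transplanted with CD45.2 wild-type bone marrow, inoculated with a low dose of DT (5 ng per gram) and studied 2 months afterwards. Donor CD45.2 cells are the moLCs, and host CD45.1 cells that this dose had spared, 79 in all, are the embryo-derived LCs (eLCs). Both were index sorted as lineage-negative cells with CD11c, CD11b, CD24, MHCII and CD326 on the surface, so that the gate had selected for an LC phenotype before any RNA was measured. The labels name no animal, hence the moLCs count as 1 sample, no test was made, and the only repeat is between the 2 plates on which the cells were sequenced. Intervals cover counting error only.

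Lyz2 encodes lysozyme M, a secreted enzyme that cleaves bacterial cell walls and is made by monocytes, macrophages and neutrophils. Its promoter is widely used to mark or delete genes in these lineages. A classical monocyte is recognised by Ly6c2, Ccr2 and Plac8, which are lost as it matures in tissue. A resident macrophage is recognised by Adgre1 (F4/80), Mertk, Fcgr1 (CD64), Cd68, the complement C1q chains and Apoe, and LCs share part of that set.

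Lyz2 was either read many times in a moLC or not read at all. The reads include PCR copies, and whether a cell without a read lacked the transcript was not tested. The Lyz2-read moLCs held from 28 to 1453 Lyz2 reads with a median of 527. No moLC held between 1 and 27 reads, and the 3 lowest members held 28, 30 and 48. Scaled to 1000000 reads of the cell (CPM), Lyz2 lay between 7.57 and 577 with a median of 187. It was under 10 CPM in 2 cells, between 10 and 100 CPM in 11, between 100 and 300 CPM in 24 and at or above 300 CPM in 6. The Lyz2-read cells made up 41.7% of moLCs (exact binomial interval 32.1 to 51.9%). The share was 40.3% on plate 1 (27 of 67) and 44.4% on plate 2 (16 of 36), and 43.8% when each cell was thinned to the same number of reads. Among eLCs 18 of 79 cells had a Lyz2 read (22.8%, 14.1 to 33.6%), with 8 of 29 on plate 1 and 10 of 50 on plate 2, at 22.5 to 439 CPM. A Lyz2-read cell in the next well of the row was present for 46.5% of the Lyz2-read moLCs and for 55% of the Lyz2-unread ones.

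**Figure D1:**
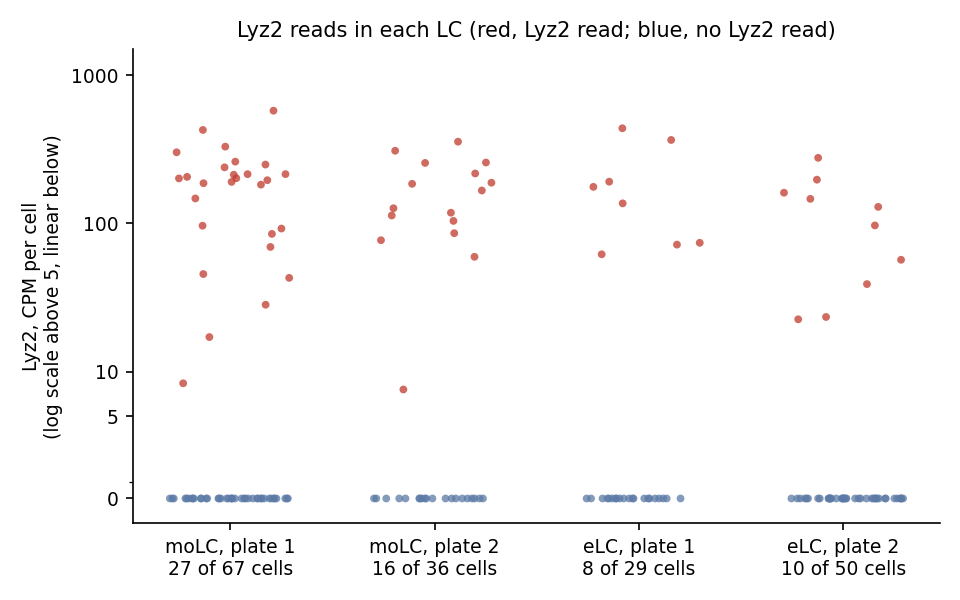
Lyz2 level of each LC in CPM (vertical axis, log scale above 5 and linear below) by origin and plate, with Lyz2-read cells in red and Lyz2-unread cells in blue. Cells with a Lyz2 read start at 7.57 CPM in moLCs and the others sit at 0, with 27 of 67 and 16 of 36 moLCs and 8 of 29 and 10 of 50 eLCs in red.

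The gene nearest to Lyz2 in its pattern was Lyz1, which encodes lysozyme P, the form that Paneth cells of the gut secrete. Both genes lie on the minus strand of chromosome 10 in GRCm38, Lyz2 (ENSMUSG00000069516) from 117277331 to 117282321 and Lyz1 from 117287797 to 117292868. Their coding sequences of 444 bases are 95.05% identical, with 22 mismatches, and 74 of the 1189 stretches of 75 bases in the Lyz1 transcript (6.22%), the length of a read, also occur in the Lyz2 transcript. The 90-base window of coding sequence with the most differences is printed below from the GENCODE M21 transcripts. It covers bases 43 to 132 of both coding sequences in exon 1, and capitals mark the 13 bases that differ.
Lyz2 (chr10:117282111-117282200, minus strand): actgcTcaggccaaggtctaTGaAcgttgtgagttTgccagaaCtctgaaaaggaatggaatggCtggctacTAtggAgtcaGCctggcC
Lyz1 (chr10:117292707-117292796, minus strand): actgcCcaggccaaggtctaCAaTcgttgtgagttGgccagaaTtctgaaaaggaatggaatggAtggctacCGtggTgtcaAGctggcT

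Lyz1 was counted at 76 reads in all kept LCs together, which is 0.252% of the 30203 Lyz2 reads, with at most 10 in a cell. These reads lay in 36 cells, all 36 with a Lyz2 read, and in 0 of the 121 LCs without one. A count of 0 of 121 allows a share of up to 2.48%, taken here and below as 3 cells of the total. Among moLCs Lyz1 was found in 26 of 43 Lyz2-read cells and in 0 of 60 Lyz2-unread cells. How many of them came from Lyz2 transcripts was not tested.

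Median depth was alike in both groups of moLCs while the median number of genes was not. The Lyz2-read cells had a median of 2981427 reads (1370741 to 4235870) and the Lyz2-unread cells 2912779.5 (606878 to 4450795). The median number of genes with a read was 4214 against 3974.5, and 4165.5 against 3916 after thinning. The median mitochondrial share was 0.922% against 1.13%. Genes were tested where 25% or more of either group had a read, and of these 6465 genes 67.95% were found in a larger share of the Lyz2-read cells, with a median difference of 4.19 percentage points, and 65.1% and 3.70 points after thinning. A larger share of Lyz2-read cells with a given gene is thus the common case among all genes, and its part in the shares below was not tested.

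Of the genes that define a classical monocyte, Ly6c2 and Plac8 had no read in either group and Ccr2 was read in 1 cell of each. Of the 22 genes of the monocyte list, 9 had no read in any moLC, Cx3cr1, the fractalkine receptor, among them. A count of 0 of 43 Lyz2-read cells allows a share of up to 6.98%, and 0 of 60 allows up to 5%. Ccr2, the chemokine receptor by which monocytes leave the marrow, had 26 and 8 reads in its 2 cells. In all, 10 genes of the list were read in under 25% of the cells of either group, and 3 were read widely enough to be compared.

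These 3 were not specific to monocytes, and none differed by the size rule used below. S100a6, a calcium-binding protein of many cell types, was read in every moLC at 780 and 799 summed CPM, a log2 ratio of -0.04 of Lyz2-read over Lyz2-unread cells. S100a4 was read in 43 and 57 cells at 177 and 131 CPM, a log2 ratio of 0.44 (0.17 on plate 1, 0.72 on plate 2). Ifitm3, an interferon-induced membrane protein, was read in 37 and 49 cells with a median of 3 reads where present, and its log2 ratio of -1.22 changed sign between plates (0.29 and -2.70) and ran from -1.87 to -0.42 as single cells were left out. The median of the list was -0.04, beside -0.02 over all genes tested. Cd14, a co-receptor for bacterial lipopolysaccharide, was read in 10 cells of either group.

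The macrophage list was largely shared, and its largest ratio came from few cells. Of its 33 genes 9 had no read in any moLC, including the defining receptors Mertk and Fcgr1 and also Cd163, Folr2, Lyve1 and Vsig4. A further 8 were read in under 25% of the cells of either group and 16 were compared. The summed CPM of the whole list ran from 5096 to 33256 per cell in Lyz2-read cells with a median of 10743, and from 2575 to 28353 with a median of 8961 in Lyz2-unread cells, so that the groups overlapped over nearly their full range. On plate 2 the order of the medians was the other way, 7854 against 11172.

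**Figure D2:**
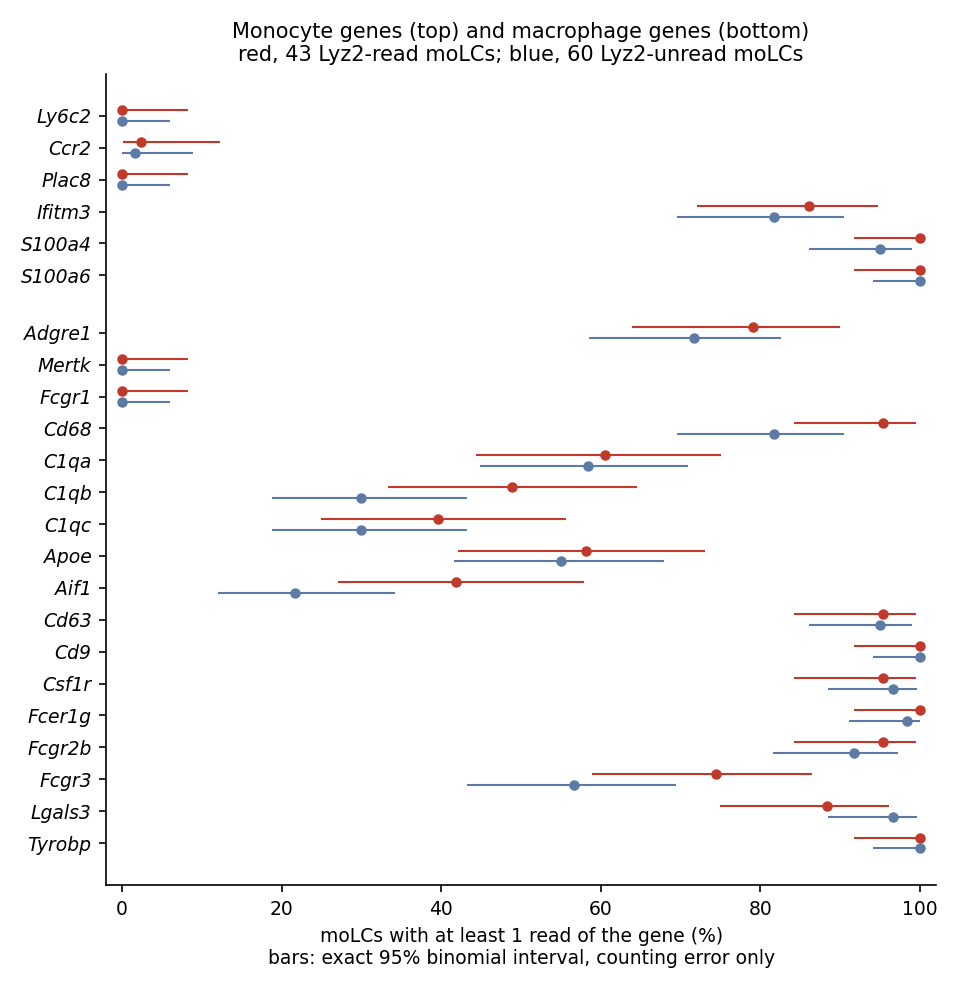
Share of moLCs with at least 1 read of selected monocyte genes (top) and macrophage genes (bottom), in percent, with red points for the 43 Lyz2-read and blue points for the 60 Lyz2-unread cells and bars for the exact 95% binomial interval. Ly6c2, Plac8, Mertk and Fcgr1 sit at 0 in both groups, and the intervals of the groups overlap for every gene shown.

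Genes were compared by a size rule, which asks for at least a 2-fold difference of summed CPM in the same direction over all moLCs and on each plate by itself, and by a share rule, which asks for a difference of at least 20 percentage points in the share of cells with a read within each plate, as sequenced and after thinning. Of all 6465 genes 1.48% were higher in Lyz2-read moLCs by the size rule (96 genes) and 1.72% were lower (111 genes). The macrophage list had 3 of 16 genes higher, none lower and none past the share rule. Its median log2 ratio was 0.28 (0.26 on plate 1, 0.20 on plate 2), and 10 of its 16 genes were higher within both plates and 0 lower within both, beside 24.4% and 27.5% of all genes tested.

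The 3 genes were Fcgr3, C1qb and Aif1. Fcgr3 (chromosome 1, 171051174 to 171064935), which encodes the low-affinity IgG receptor CD16, ranged from 0 to 1037 CPM per cell with a median of 0.746 in Lyz2-read moLCs and from 0 to 8.75 CPM with a median of 0.407 in Lyz2-unread moLCs. The sums came to 40.2 and 0.769 CPM, with a log2 ratio of 5.71 (6.09 on plate 1, 4.78 on plate 2). The medians of both groups were below 1 CPM, and the ratio came from 4 cells with far more reads than any other. C1qb (chromosome 4, 136880129 to 136886187), a chain of the first complement component, was read in 21 of 43 and 18 of 60 cells, with a median of 0 in both groups and highest values of 7202 and 377 CPM. Its sums were 282 and 52.1 CPM, a log2 ratio of 2.44 (1.49 and 3.28). Aif1 (chromosome 17, 35170991 to 35176068), the actin-binding protein IBA1 of activated macrophages, was read in 18 and 13 cells, with highest values of 746 and 94.5 CPM, and had a log2 ratio of 1.98 (1.31 and 3.56). A single plate 2 cell held 50.1% of the C1qb reads and 37.3% of the Aif1 reads of the Lyz2-read group. Without 1 cell the log2 ratio of C1qb went down to 1.47 and that of Aif1 to 1.33. Fcgr3, C1qb and Aif1 each still passed the size rule without the cell with the most reads of that gene.

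The other C1q chains had less of a difference. C1qa was read in 26 of 43 and 35 of 60 cells at 245 and 147 CPM, a log2 ratio of 0.74 (0.09 on plate 1, 1.56 on plate 2), and C1qc in 17 and 18 cells at 168 and 45.5 CPM, a log2 ratio of 1.89 (0.51 and 3.35) that went down to 0.74 without 1 cell. All 3 chains were read in 12 of 43 Lyz2-read moLCs (27.9%, 15.3 to 43.7%) and in 9 of 60 Lyz2-unread moLCs (15%, 7.10 to 26.6%), so the intervals overlapped. In eLCs the shares were 8 of 18 and 23 of 61.

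A group of 4 moLCs stood apart by Fcgr3, with 237, 408, 409 and 1037 CPM, while the next moLC had 8.75. They were singled out after their values were seen. All 4 were Lyz2-read, 3 on plate 1 and 1 on plate 2, and none of the 79 eLCs reached their level, the highest being 2 Lyz2-unread eLCs at 79.3 and 98.97 CPM. Mrc1, which encodes the mannose receptor CD206, was read at 10 CPM or more in 3 moLCs, at 22.5, 141 and 489 CPM, and these were 3 of the 4. Trem2, a lipid receptor of tissue macrophages, was read at that level in 2 moLCs, at 83.4 and 144 CPM, again among the 4. Neither gene reached 10 CPM in any of the 60 Lyz2-unread moLCs or 79 eLCs. Ms4a7 was found at 20.2, 54.4 and 184 CPM in 3 of the 4, and at 10 CPM or more in 2 Lyz2-unread moLCs and 1 Lyz2-unread eLC.

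The 4 cells were not alike. The plate 1 cell with 1037 CPM of Fcgr3 had 4496 CPM of Cd14, 1187 CPM of Ccr7, the only Itgal reads of any moLC (60.8 CPM) and 11.8 CPM of Ccr2, while C1qa, C1qc and Apoe were at 0. The plate 2 cell with 409 CPM had 3042, 7204 and 4780 CPM of C1qa, C1qb and C1qc, 3483 CPM of Apoe and 747 CPM of Aif1. It was the highest of all moLCs for summed C1q. The plate 1 cell with 237 CPM had 1725, 1788 and 585 CPM of the C1q chains and the highest Mrc1, and the one with 408 CPM had 907 CPM of Adgre1 and 355 CPM of Cd209a. The cell with 1037 CPM of Fcgr3 also had 119 CPM of Cd209a. Mgl2, like Cd209a a dermal dendritic cell gene, was read in all 4 cells, at 298, 607, 694 and 1194 CPM. Clec10a, another such gene, was at most 1.35 CPM in them. Mertk, Fcgr1, Ly6c2 and Plac8 were at 0 in all 4. H2-Ab1 was between 44557 and 56266 CPM in them and Epcam between 1077 and 2097 CPM.

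Langerin separated the 4 cells further. Cd207 was 42.6 and 468 CPM in the cells with 1037 and 409 CPM of Fcgr3, below every other moLC but 1, beside a median of 23846 CPM over all moLCs. It was 12078 and 19331 CPM in the other two. The 2 cells low in Cd207 also had the most genes of any moLC, 6690 and 7212, while the others had 4817 and 4246. Their totals were 2205981 and 2577654 reads, below the median of their group. No doublet caller was run on these singly sorted cells, and the part of gene number in their macrophage genes was not tested.

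**Figure D3:**
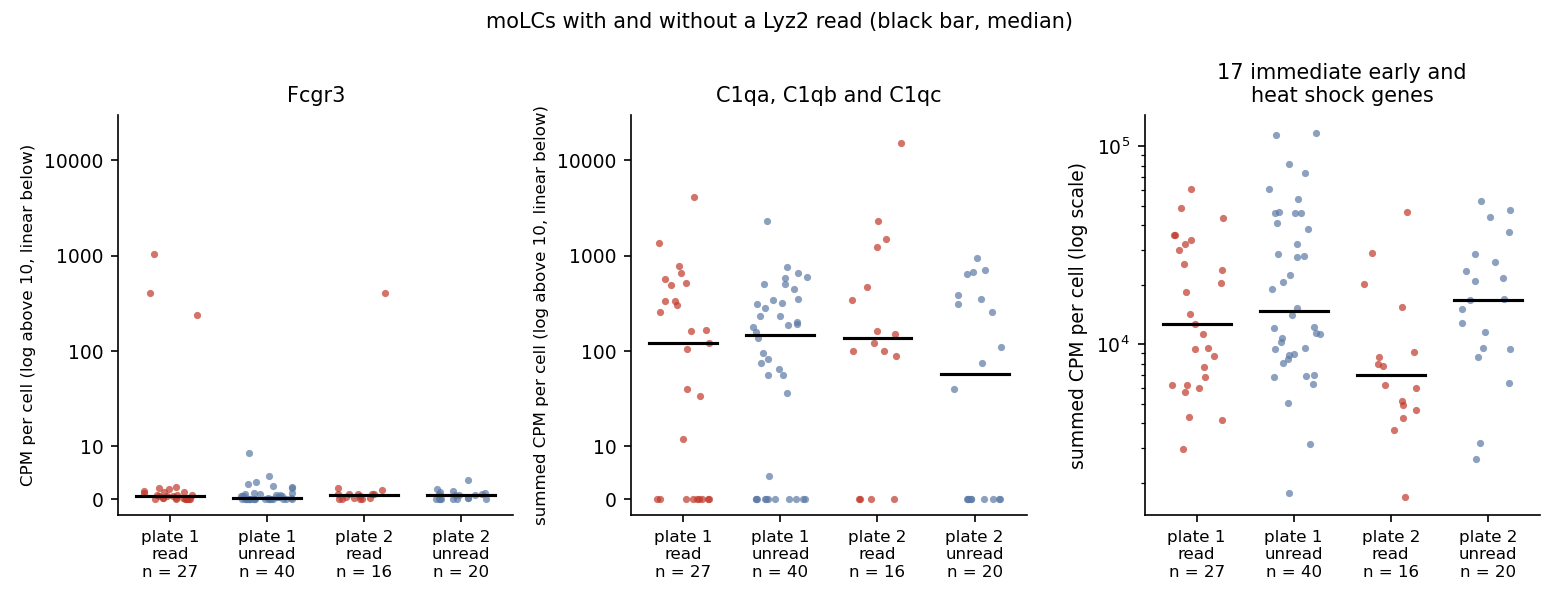
Level per moLC of Fcgr3 (left), of the 3 C1q chains summed (middle) and of 17 immediate early and heat shock genes summed (right), in CPM on a log axis (linear below 10 in the first 2 panels), by plate and Lyz2 group, with a black bar at the median. A set of 4 red points lies between 237 and 1037 CPM of Fcgr3 with all others at or below 8.75, the C1q points of the groups overlap apart from the highest red points, and the red medians are below the blue ones for the 17 genes on both plates.

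Without the 4 cells no macrophage gene passed the size rule in either direction. They had been chosen by Fcgr3 and all were Lyz2-read, so the fall of Fcgr3 was set by that choice. Leaving them out of the Lyz2-read group alone also lowers its ratios for the other genes high in them. With 39 Lyz2-read cells the log2 ratio of Fcgr3 was -0.11 in place of 5.71. That of C1qb was 1.04 (0.74 on plate 1, 1.42 on plate 2) and that of Aif1 was 1.01 (0.91 and 1.57), both still higher on each plate. C1qa came to 0.09 and C1qc to 0.58. Lgals3 gave -0.43 (0.16 on plate 1, -1.66 on plate 2), Cd63 0.31 (0.59 and -0.23) and Cd9 0.15 (0.37 and -0.27). The median of the 16 genes was 0.15 (0.16 and 0.01), with 6 genes higher and 2 lower within both plates.

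None of the other macrophage genes compared passed the size rule with all cells in. Csf1r, the receptor that LCs need to survive, was read in 41 of 43 and 58 of 60 cells at 924 and 807 CPM, a log2 ratio of 0.20. The signalling adaptors Tyrobp and Fcer1g gave 0.16 and 0.27, and the inhibitory IgG receptor Fcgr2b 0.30. Adgre1 was read in 34 and 43 cells and was slightly lower in Lyz2-read cells, at 167 and 205 CPM, with a log2 ratio of -0.30 (-0.45 and 0.03). Cd68 gave -0.12, with opposite signs on the 2 plates. Apoe, a lipid carrier, was read in 25 and 33 cells at 342 and 236 CPM, a log2 ratio of 0.53 that ran between 0.24 and 0.90 as single cells were left out.

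Over all genes the division by Lyz2 gave few differences, in about equal number in both directions by size. The share rule was passed by 45 genes in favour of Lyz2-read cells (0.696%) and by 0 in favour of Lyz2-unread cells (0%), in the same direction as the larger number of genes per Lyz2-read cell. Both rules together were passed by 10 genes (0.155%), all higher in Lyz2-read cells, and by 0 in the other direction (0%). Besides Lyz1 these were Sec22a, Slco3a1, Nrp2, Copz2, Tm9sf1, Tmem120a, Gm9104, Dck and Actr5, none of which is on the monocyte or macrophage lists. Of the 10 genes 8, all but Slco3a1 and Tm9sf1, were read in under 25% of the Lyz2-unread cells and so were compared only through the group in which they were higher, as were 75 of the 96 genes higher by size and 55 of the 111 lower. Without the cell with the most reads of the gene, Slco3a1, Nrp2 and Gm9104 no longer passed the size rule.

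Most of these genes were read in a minority of the cells of either group. Sec22a, a protein of transport between the endoplasmic reticulum and the Golgi, was read in 15 of 43 and 2 of 60 cells at 29.4 and 5.07 CPM, a log2 ratio of 2.53 (2.58 on plate 1, 2.45 on plate 2). Copz2, a subunit of the coat of Golgi vesicles, was read in 16 and 5 cells, with a log2 ratio of 1.92 (1.18 on plate 1 and at least 9.14 on plate 2, where no Lyz2-unread cell had a read), and Tm9sf1 in 22 and 15 cells, with 1.26 (1.37 and 1.05). Nrp2, a co-receptor for semaphorins and VEGF, was read in 15 and 5 cells at 20.6 and 6.91 CPM. Dck, the kinase that salvages deoxynucleosides, was read in 16 and 6 cells at 48.99 and 9.08 CPM, a log2 ratio of 2.43 (2.09 and 4.20). Slco3a1, an organic anion transporter, was read in 28 and 20 cells at 103.3 and 42.7 CPM, a log2 ratio of 1.28 (1.02 and 2.16).

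The same division was made in eLCs, whose cells had no part in choosing the moLCs. Of 6908 genes tested in eLCs, 2.21% were higher and 3.69% lower in the Lyz2-read cells by size, and 1.77% and 0.782% passed the share rule in favour of and against them, with only 18 Lyz2-read cells behind these shares. Of the 96 genes higher in Lyz2-read moLCs 72 could be tested in eLCs, where 4 were higher and 8 lower by the same size rule. Of the 111 genes lower in Lyz2-read moLCs 93 could be tested, where 5 were lower and 5 higher. Of the 45 genes past the share rule in favour of Lyz2-read moLCs 41 could be tested. In eLCs 4 of them passed it in the same direction and 1 in the other. Of the 10 genes past both rules, Lyz1 and Dck were also higher in Lyz2-read eLCs by the size rule, Dck with a log2 ratio of 1.42. Sec22a had a log2 ratio of 0.10 there and Copz2 of 0.03, and Slco3a1 was lower at -2.17.

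**Figure D4:**
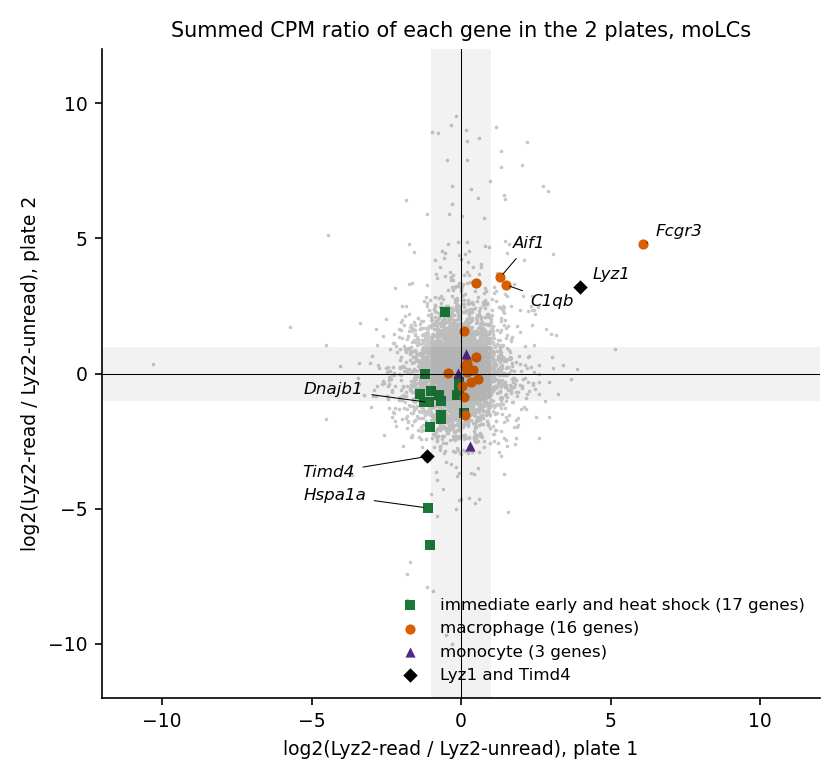
Log2 ratio of summed CPM of Lyz2-read over Lyz2-unread moLCs on plate 1 (horizontal) and plate 2 (vertical) for the 6465 genes tested (grey), with the immediate early and heat shock genes (green squares), macrophage genes (orange circles), monocyte genes (purple triangles) and Lyz1 and Timd4 (black) marked and grey bands at less than 2-fold. Fcgr3 at 6.09 and 4.78 and Lyz1 at 3.97 and 3.19 (lower bounds, with the Lyz2-unread cells set to 3 reads) lie apart at the upper right, C1qb and Aif1 are next, and most green squares lie below 0 on both axes.

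The size of a ratio often came from few cells in other genes too. Among the largest ratios, picked after their values were seen, Epha10, an ephrin receptor, had a log2 ratio of 6.16, with 97.3% of its reads in the Lyz2-read group from 1 cell and 0.99 without it. Gmeb1 and Crebzf, regulators of transcription, had 3.59 and 3.53. In the other direction Cd69, a marker of recent activation, was read in 6 of 43 and 18 of 60 cells at 7.85 and 99.95 CPM, with a log2 ratio of -3.67 (-3.64 on plate 1, -3.75 on plate 2) that stayed between -4.24 and -3.42 with any 1 cell left out, and Cd69 in eLCs gave -1.92. Cd69 and Ino80 were read widely enough to be compared in moLCs only through the Lyz2-unread group, in which they were higher. Dvl3 and Ino80 had -3.58 and -3.01 in moLCs but 2.03 and 3.29 in eLCs.

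LC identity genes lay close to the same level in Lyz2-read and Lyz2-unread moLCs. Cd207 was read in 43 of 43 and 59 of 60 cells at medians of 25370.5 and 22606 CPM, and its summed log2 ratio was 0.16 (0.23 and 0.03). Epcam gave -0.23, Itgax 0.18 and H2-Ab1 0.05. The median over 15 LC identity genes was 0.16, over 10 MHC class II genes 0.07 and over 17 lysosomal genes 0.11, and the largest lysosomal ratios were those of Grn (0.53), which encodes progranulin, and Psap (-0.53). Of these lists 1 gene passed the size rule, as lower, where 1.72% of all genes tested were lower by it. Timd4, which encodes the phosphatidylserine receptor TIM-4 of resident macrophages, was read in 5 of 43 Lyz2-read and 16 of 60 Lyz2-unread moLCs, at 41.7 and 171 summed CPM, a log2 ratio of -2.04 (-1.13 on plate 1, -3.07 on plate 2). Since 11.6% and 26.7% of the cells had a read, Timd4 was compared only through the group in which it was higher. In eLCs Timd4 was read in 14 of 18 and 46 of 61 cells with a log2 ratio of -0.18.

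Maturation, inflammatory and interferon genes differed in single members. Ccr7, the receptor that takes LCs to the lymph node, was read in 20 of 43 and 20 of 60 moLCs at 1167 and 626 CPM, a log2 ratio of 0.90 (0.90 and 1.19), and in eLCs of -1.16. Ccl22, a chemokine of mature dendritic cells, passed the share rule, with 21 and 16 cells, but its summed log2 ratio was -0.32, and 80.9% of its reads in the Lyz2-unread group came from 1 cell. Il4i1, an amino acid oxidase of mature dendritic cells, gave 1.75 (3.07 and 0.20), and 1.06 to 2.44 with single cells left out. Il1b was read in 32 and 45 cells at 3128 and 5612 CPM, a log2 ratio of -0.84 (-0.84 and -0.86), and Il1rn, which encodes the receptor antagonist, in 16 and 10 cells with 1.98 (2.33 and 0.25), which went down to 0.85 without 1 cell. Ly6e, an interferon-induced surface protein, passed the size rule at 294 and 110 CPM, a log2 ratio of 1.42 (1.01 and 2.13), whereas 8 of 16 interferon-stimulated genes, Ifit1, Mx1 and Rsad2 among them, had no read in any moLC. Of the myeloid transcription factors Irf4 was higher (1.22, 1.05 and 1.70 on the plates) and Cebpd lower (-1.48, -1.27 and -2.07) by the size rule, and neither passed it without the cell with the most of its reads.

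**Figure D5:**
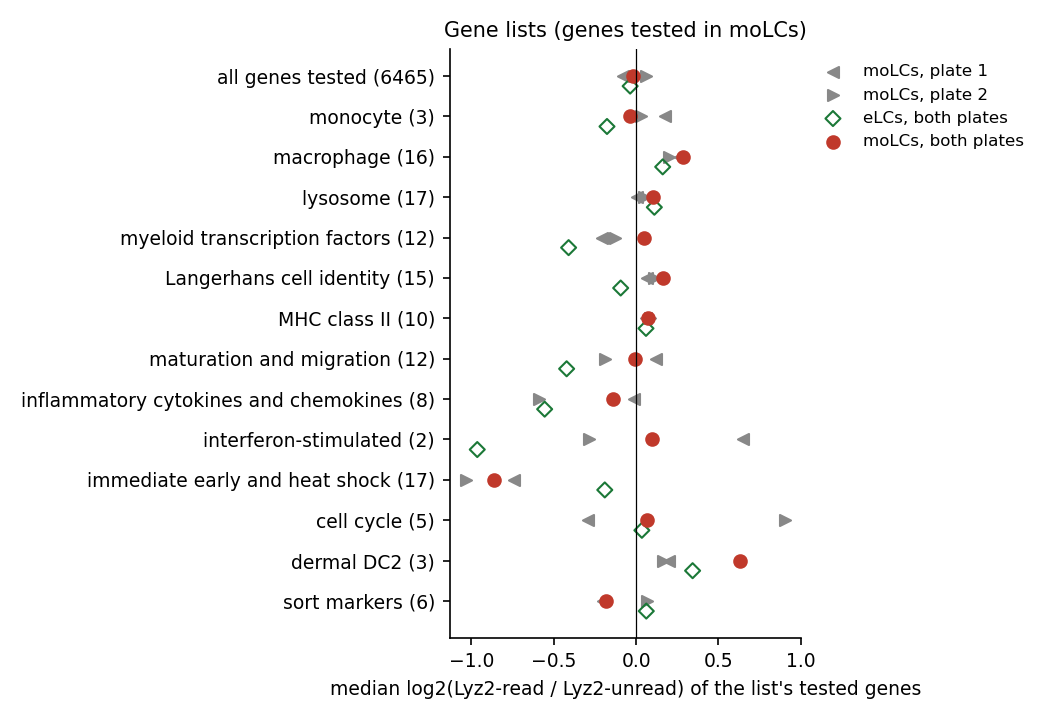
Median log2 ratio of Lyz2-read over Lyz2-unread cells (horizontal) for each gene list with at least 2 genes tested, with red circles for all moLCs, grey triangles for moLCs of plate 1 and plate 2 and open green diamonds for eLCs; the number of genes tested is in brackets. The immediate early and heat shock list lies at -0.86 in moLCs and -0.19 in eLCs, the macrophage list at 0.28 and 0.16, and the monocyte list at -0.04 and -0.18.

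The list that stood farthest from 0 was that of immediate early and heat shock genes, which cells induce within minutes of stimulation or stress. All 17 were read widely, 16 were lower in Lyz2-read moLCs, and 15 were lower within both plates, beside 27.5% of all genes. Their median log2 ratio was -0.86 (-0.74 on plate 1, -1.03 on plate 2). Summed over the list, the cells ran from 1691 to 60998 CPM with a median of 9110 in the Lyz2-read group and from 1770 to 116783 CPM with a median of 15994 in the Lyz2-unread group, so the groups overlapped over most of their range. The medians were 12658 and 14694 CPM on plate 1 and 7012 and 16819 CPM on plate 2. All 17 genes were counted in the same cells, so their number is not one of independent events.

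Of these 17 genes 5 passed the size rule as lower, beside 1.72% of all genes tested. Of the 5 only Dusp1 passed it without the cell with the most reads of the gene. Dusp1, a phosphatase that ends MAP kinase signals, was read in 30 of 43 and 46 of 60 cells with medians of 103.4 and 312 CPM and sums of 436 and 1153 CPM, a log2 ratio of -1.40 (-1.05 and -1.99). Atf3, a stress-induced transcription factor, gave -1.22 (-1.24 and -1.05), and -0.98 without 1 cell. The heat shock genes Hspa1a and Hspa1b gave -1.32 and -1.33, with 61.5% and 77.99% of the reads of the Lyz2-read group in a single plate 1 cell, and Dnajb1 gave -1.12, which turned to 0.26 without the cell that held 62.2% of its reads in the Lyz2-unread group. Fos and Jun, the subunits of AP-1, gave -0.86 and -0.94, and Egr1 alone was higher at 0.41, with -0.55 on plate 1 and 2.27 on plate 2, and -0.06 without 1 cell. In eLCs the list's median was -0.19, with 0.17 on plate 1 and -0.14 on plate 2, and Fos was 1.05 there.

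Among markers of other cells, those of T cells, mast cells and melanocytes were read little in either group. All genes of the T cell, mast cell and melanocyte lists were read in under 25% of the cells of each group, and 8 of 12, 6 of 7 and 4 of 5 of them had no read in any moLC. Of 12 neutrophil genes, a lineage that also makes lysozyme M, 8 had no read in any moLC, S100a8, Ly6g and Camp among them, and Mmp9, which LCs express, gave -0.09 with opposite signs on the plates (-0.72 on plate 1, 1.22 on plate 2). The summed neutrophil list had medians of 113 and 150 CPM per cell. The dermal dendritic cell list with Mgl2 and Clec10a was read more widely, in 41 of 43 Lyz2-read and 46 of 60 Lyz2-unread moLCs. Its summed medians were 319 and 205 CPM per cell. The median log2 ratio of its 3 genes compared was 0.63 (0.20 and 0.16 on the plates), and none passed the size rule. Of the dermal dendritic cell genes Mgl2 gave 0.63 (0.88 and 0.16), Sirpa -0.01, Cadm1 -0.39 and Clec10a 2.58, the last with 81.1% of its reads in the Lyz2-read group from 1 cell. Dmkn was the only keratinocyte gene compared and gave -0.10, also with opposite signs (0.68 on plate 1, -1.32 on plate 2).

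The genes whose level was most like that of Lyz2 from cell to cell are given as a description, since Lyz2 also divided the cells. By the mean over plates of the Spearman correlation within a plate (67 and 36 moLCs, 5802 genes), Lyz1 came first at 0.772 and was followed by Spcs3 at 0.390, Ei24 at 0.353, Spin1 at 0.351 and Phb at 0.348, where the median gene was at 0.0228 and the 99th percentile at 0.265. Apart from Lyz1 each of these was weaker on plate 1 (0.167 to 0.206) than on plate 2 (0.491 to 0.613). Spcs3 is a subunit of the signal peptidase, and Phb a protein of the inner mitochondrial membrane. The cells share plate, depth and number of genes.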

How the data were processed

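The authors used a Takara Smart-Seq kit for cDNA, read both ends at 75 bases and aligned to mm10 with STAR. The counting tool, annotation and use of strand are not given in the sources used here. The deposited values are raw counts of reads, neither normalized nor tagged with molecular identifiers, so they include PCR copies. The deposited table holds 9 values that are not whole, which were handled like expected counts and rounded. Of 45661 genes listed, 45495 carry a GENCODE M21 name, from which coordinates were taken.

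The study's mitochondrial limit of 5% of a cell's reads was applied and removed 3 moLCs. Counts were summed over the cells of a group and divided by their total without Lyz2 to give CPM, with 3 reads put in place of a group sum of 0. Ratios with at most 3 reads in both groups were not computed. Thinning drew 2052512 reads from each cell, the 10th percentile, and left out 7 moLCs. The 96 moLCs that stayed in held 42 of the 43 Lyz2-read cells, so most of those left out were Lyz2-unread. Share intervals are exact Clopper-Pearson at 95%, and the limit given in the text beside a count of 0 is 3 over the number of cells. The code of the rules was run on simulated cells with differences planted in widely read genes. That run does not cover genes read in few cells. Python 3.11.15, numpy 2.4.6, pandas 2.3.3, scipy 1.17.1, matplotlib 3.10.9 and edgeR 4.0.16 (TMM only) were used.

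The cells, lists and rules were chosen with earlier results of these data known. The genes named were drawn from Lyz2, Lyz1, monocyte and macrophage genes found in 25% or more of a group and their defining markers, genes past both rules, the 2 members of every other list with the largest ratio, the 5 genes most correlated with Lyz2, and Cd207, Timd4, Ccr7 and the sort markers. Not every gene of these groups is given, and for MHC class II and cell cycle neither of the 2 members is. The 10 largest ratios by the size rule, other list members named as examples and the cells high in Fcgr3 were picked after the values were seen. Alternatives were each plate alone, thinning, other Lyz2 limits, scalings, filters and thresholds, and leaving cells out. Some members of the lists count in the list totals but are not reported here by name.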

Additional observations from a re-analysis of the deposited data

Results flagged for a closer look

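Among the genes named, 3 passed the size rule in opposite directions in moLCs and eLCs, and this difference between the origins was not tested. The log2 ratio of Lyz2-read over Lyz2-unread cells for Fcgr3 was 5.71 in moLCs and -2.56 in eLCs, where 0 of 18 Lyz2-read and 2 of 61 Lyz2-unread cells reached 10 CPM. For Slco3a1 it was 1.28 in moLCs and -2.17 in eLCs, where it was read in 6 of 18 and 42 of 61 cells, and in moLCs it no longer passed without the cell with the most of its reads. For Ino80 it was -3.01 in moLCs, where it was read in 7 of 43 and 15 of 60 cells, and 3.29 in eLCs, where it was read in 8 of 18 and 17 of 61 cells. In moLCs Ino80 was thus compared only through the Lyz2-unread group, in which it was higher. Dvl3, at -3.58 and 2.03, passed the rule in moLCs only.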

How the results depend on the processing

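With 1 sample no p-value was made. The size rule gave 96 genes higher and 111 lower in Lyz2-read moLCs. It gave 378 and 611 on plate 1 alone, 1257 and 901 on plate 2 alone, 330 and 384 for genes found in 10% or more of a group, 9 and 22 at 50%, 685 and 685 without a filter, 301 and 369 at 1.5-fold and 23 and 20 at 3-fold. The share rule gave 45 and 0 genes, and 323 and 98 on plate 1, 1212 and 267 on plate 2, 77 and 7 with thinned reads alone, 197 and 15 at 15 percentage points and 1 at 30. With a Lyz2 limit of 10 CPM, or without the moLC with the most Lyz2 reads, 1 gene passed it as lower. Chosen after seeing the data, moLCs between the 25th and 75th percentile of genes per cell (24 and 28 cells) gave 238 and 305 genes by size, of which 37 and 56 were among the 96 and 111, and 108 and 81 by share. In them the monocyte median was 0.31, the macrophage median 0.23 and the immediate early and heat shock median -1.15. The monocyte median was 0.17 on plate 1, and the macrophage median 0.20 on plate 2. Without the 4 moLCs high in Fcgr3 the macrophage median was 0.15 and 4 genes passed the share rule as lower. Fcgr3 itself, by which these cells were chosen, turned to -0.11. Without, for each gene, the cell with the most reads, 46 of the 96 and 52 of the 111 genes still passed, the macrophage median was 0.19 and Dnajb1 turned to 0.26. Over all single-cell omissions the monocyte median lay between -0.12 and 0.04, the macrophage median between 0.23 and 0.32 and the immediate early and heat shock median between -0.98 and -0.73, and the log2 ratio of Dnajb1 between -1.88 and 0.26. The cause of these shifts was not tested. The share of moLCs with a Lyz2 read stayed inside its interval under every alternative. Scaling by TMM or by totals that leave out the 50 most read genes, equal weight for each cell and the use of all moLCs kept the counts by size within 1.5 times and the 3 list medians on the same side of 0. No paired analysis was possible because the result comes from no test and no replicate number is shared between the groups.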
